A study of Homo sapiens with 2 samples.

Results

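The genes described here are 9 genes of the retinoic acid receptor machinery: the receptors RARA, RARB and RARG, their partners RXRA and RXRB, the corepressors NCOR1 and NRIP1 and the coactivators NCOA1 and NCOA3. Every probe set that the array annotation assigns to exactly 1 of these symbols was taken, whatever its signal. This gave 24 of 54675 probe sets, for 7 of the 9 genes, on an array where probe sets with 1 symbol name 19775 genes. The annotation used assigns no probe set to NCOR1 or NCOA3 as its only symbol. Both genes were therefore not analysed here, and the corepressors are represented by NRIP1 alone.
L-428 is an established cell line from Hodgkin lymphoma (HL). The PRAME knock-down cells were L-428 cells transfected with the vector pcDNA6.2-GW/EmGFP-miR-PRAME, which expresses an artificial microRNA against PRAME together with a green fluorescent protein. The control cells were L-428 cells with the vector pcDNA6.2-GW/EmGFP-miR-neg. Per the study's methods, stable transfectants were selected with blasticidin, and whether they were clones or pools is not given in the sources used here. Each condition was measured with 1 Affymetrix HG_U133PLUS2.0 array, without replicates, so no test could be performed. The number of arrays limits the precision. The labels name no treatment with retinoic acid for either array.

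Retinoic acid is made from vitamin A and acts through nuclear receptors. RAR receptors bind DNA as pairs with RXR receptors. Without ligand the pair holds corepressors with histone deacetylases and target genes are silenced. With ligand the corepressors leave and coactivators with histone acetyltransferase activity are recruited. PRAME, an antigen of testis and many tumors, is known as a repressor that binds to the liganded RAR receptor. RARB is both a receptor and a classical target of retinoic acid, like CYP26A1, the enzyme that degrades retinoic acid.

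A DNA element in a promoter window of RARB is shown first, because RARB was the gene with the highest ratio among these genes. Whether this element bears on that ratio was not tested. RAR and RXR pairs bind to direct repeats of a 6-base half-site, and the form with 5 bases between the half-sites is abbreviated DR5. All RefSeq promoter windows of GRCh38.p14 (250 bases before to 50 bases after a start site) were searched on both strands for a pair of half-sites (AGGTCA or AGTTCA or GGTTCA or GGGTCA, mixed as they come) with 5 bases between them. Of 35116 windows, 31 held such a repeat (0.0883%). The 9 genes had 21 windows, and 1 of these held a repeat. It was 1 of the 4 windows of RARB, and the repeat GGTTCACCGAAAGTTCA lies from position -53 to -37 relative to the start site. Among 63 further genes of the pathway with a window, CYP26A1 alone had a repeat, from -90 to -74 on the opposite strand (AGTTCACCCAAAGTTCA). The 120 bases before both start sites are printed with the repeat in capitals, on the plus strand of chr3:25428143-25428262 for RARB and of chr10:93073773-93073892 for CYP26A1.
RARB: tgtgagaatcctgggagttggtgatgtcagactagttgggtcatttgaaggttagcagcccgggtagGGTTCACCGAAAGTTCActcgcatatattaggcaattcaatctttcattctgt
CYP26A1: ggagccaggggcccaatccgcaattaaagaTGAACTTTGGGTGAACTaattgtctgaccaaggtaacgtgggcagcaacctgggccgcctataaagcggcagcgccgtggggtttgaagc
With 1 or 2 bases between the half-sites, 46 windows (0.131%) and 14 windows (0.0399%) held a repeat, none of them a window of the 9 genes. A match describes the letters of a window only, and no binding was measured here. RARB and CYP26A1 were known targets of retinoic acid before this search, so their matches are not read against the share over all windows.

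The knock-down itself was visible on the arrays. The only PRAME probe set, 204086_at, read 1251 in the PRAME knock-down cells and 2115 in the control cells (log2 ratio -0.80). All ratios are knock-down over control, on the log2 scale, after the median of the probe sets above a filter was set to 0. The filter was a mean signal of 97.7 over both arrays, which is the median of all probe sets. The spread of ratios was wide at low signals, with an SD of 0.54 for probe sets between 97.7 and 136, against 0.27 above 2799. The median ratio also changed with the signal, with 0.21 and -0.028 in these classes. Each ratio is therefore set beside 1000 probe sets nearest in mean signal, called probe sets of like signal. Of 11 markers of Hodgkin and Reed-Sternberg cells, 10 were above the filter, among them the CD30 gene TNFRSF8 with 1667 in the PRAME knock-down cells and 1893 in the control cells. None of these 10 passed 1.5-fold, and 5 of them had log2 ratios below 0. The summed signal of all 11 was 49539 in the PRAME knock-down cells and 48111 in the control cells. Of 6 measured mature B cell markers, 4 were above it, with a summed signal over all 6 of 984 in the PRAME knock-down cells and 836 in the control cells, and CD79A alone passed 1.5-fold (332 in the PRAME knock-down cells and 178 in the control cells). The log2 ratios of these 4 ranged from -0.48 to 0.85, and 1 of them was below 0. The part of the B cell markers in the ratios below was not tested. None of 4 T cell markers was above the filter, with a summed signal of 325 in the PRAME knock-down cells and 206 in the control cells. None of 3 monocyte markers was above it either, with a sum of 122 in the PRAME knock-down cells and 91.1 in the control cells. Both sums hold only probe sets below the filter. Of all probe sets below the filter, 37.8% were at least 1.5-fold higher and 18.1% at least 1.5-fold lower. Of 4 epithelial and stromal markers, DCN and COL1A1 were above it, and the summed signal of these 4 was 1038 in the PRAME knock-down cells and 1423 in the control cells. COL1A1 passed 1.5-fold, with 790 in the PRAME knock-down cells and 1199 in the control cells (log2 ratio -0.65). Its 3 probe sets above the filter ranged from -0.76 to 0.92, and DCN had a log2 ratio of 0.013. In bulk RNA, fewer cells with a transcript and less transcript per cell cannot be told apart.

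Of the 24 probe sets, 15 were above the filter, and each of the 7 genes had at least 1 of these. A threshold of 1.5-fold was passed upward by 1 of the 15 probe sets, for RARB, and downward by 1, for NRIP1. Of all 27307 probe sets above the filter, 8.21% were higher by at least 1.5-fold after PRAME knock-down and 6.2% were lower by as much. The share among the 15 probe sets was 6.67% in each direction, near this background. None of the 15 passed 2-fold, a threshold passed upward by 1.74% and downward by 0.941% of all probe sets above the filter. The other 13 probe sets had log2 ratios between -0.54 and 0.38. The log2 ratio was below 0 in 12 of the 15 probe sets, against 13653 of all 27307, and the median was -0.133. These 15 probe sets are not independent, since 4 of the 12 belong to NCOA1. After subtraction of the trend with signal, 11 of the 15 were below 0.
Below the filter were 9 probe sets, of RARA, RARB, RARG and RXRB. Of these, 3 were at least 1.5-fold higher and 3 at least 1.5-fold lower. At such signals large ratios were common, since 37.8% of all probe sets below the filter were at least 1.5-fold higher and 18.1% at least 1.5-fold lower.

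**Figure D1:**
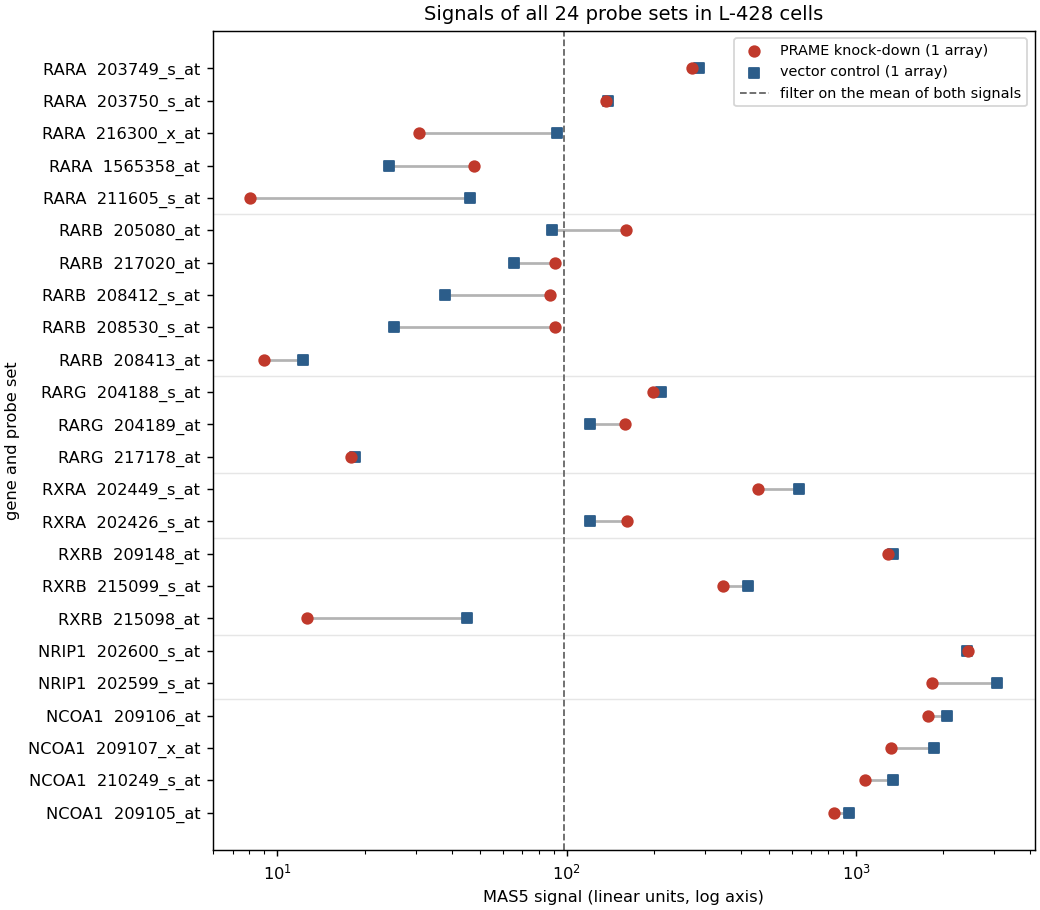
MAS5 signal (log axis) of each of the 24 probe sets in PRAME knock-down cells (red circles) and control cells (blue squares), 1 array per condition, grouped by gene. The dashed line is the filter of 97.7, which applies to the mean of both signals. The NRIP1 probe set 202599_s_at (1833 and 3073) and the RARB probe set 205080_at (159.8 and 88.7) have the widest gaps among the probe sets above the filter.

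RARB, the retinoic acid receptor beta, had the highest ratio of the 7 genes. The probe set 205080_at read 159.8 in the PRAME knock-down cells and 88.7 in the control cells, 1.75-fold higher after centering (log2 ratio 0.80). This is the only RARB probe set above the filter, and it passed through the knock-down array, since the control signal lies below 97.7. Of the 1000 probe sets of like signal, 87.8% had a lower ratio. The median of these was 0.21, and 21.8% of them were at least 1.5-fold higher as well.
The remaining 4 RARB probe sets were below the filter, and 3 of them were higher in the PRAME knock-down cells. The probe set 208530_s_at read 91.3 in the PRAME knock-down cells and 25.4 in the control cells. The probe set 208412_s_at read 87.5 in the PRAME knock-down cells and 37.9 in the control cells. The probe set 217020_at read 90.9 in the PRAME knock-down cells and 65.7 in the control cells. These correspond to log2 ratios of 1.80, 1.16 and 0.42, where the medians at like signal were 0.37, 0.34 and 0.29. The fifth probe set, 208413_at, was near the bottom of the scale, with 8.996 in the PRAME knock-down cells and 12.2 in the control cells. Of the 5 RARB probe sets, 4 had log2 ratios above 0, each above the median at like signal, but 3 of these 4 were below the filter. For 208530_s_at, 208412_s_at and 217020_at, 96%, 88.2% and 59.7% of the probe sets of like signal had a lower ratio. In the same order, 37.7%, 35.9% and 29.8% of those probe sets were at least 1.5-fold higher. The ratio of RARB was therefore read from 205080_at only, and the probe sets below the filter were not counted as support. Whether the cells use the RARB start site with the DR5 repeat was not tested.

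RARA, the receptor alpha, was measured by 2 probe sets above the filter, and both had nearly equal signals. The probe set 203749_s_at read 270.7 in the PRAME knock-down cells and 286.8 in the control cells (log2 ratio -0.13). The probe set 203750_s_at read 136 in the PRAME knock-down cells and 138 in the control cells (-0.070). Their ratios differed by 0.058, a smaller range than in most of the 3104 other genes with 2 probe sets above the filter (11.95% had a smaller one). The 3 RARA probe sets below the filter differed in direction. The probe set 216300_x_at read 30.9 in the PRAME knock-down cells and 92.7 in the control cells, and 211605_s_at read 8.04 in the PRAME knock-down cells and 46.1 in the control cells. In contrast, 1565358_at had 47.6 in the PRAME knock-down cells and 24.4 in the control cells. The level of RARA was therefore described by its pair of brighter probe sets only.

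RARG, the receptor gamma, had 2 probe sets above the filter with opposite signs. The probe set 204188_s_at read 199 in the PRAME knock-down cells and 212 in the control cells (log2 ratio -0.13). The probe set 204189_at read 158 in the PRAME knock-down cells and 120.2 in the control cells (0.35). The sign of RARG thus depended on the probe set, and neither passed 1.5-fold. The third, 217178_at, had 18.0 in the PRAME knock-down cells and 18.6 in the control cells.

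**Figure D2:**
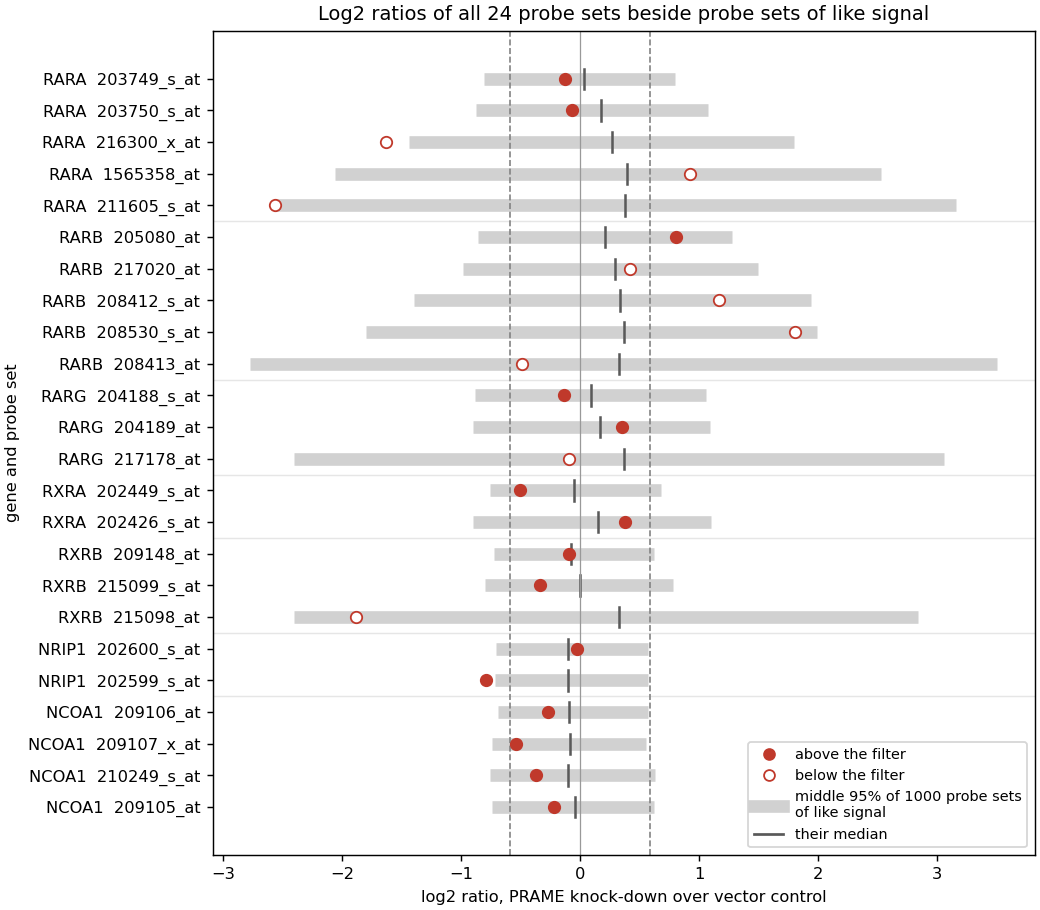
Log2 ratio of PRAME knock-down over control cells for the 24 probe sets (filled points above the filter, open points below it, 1 array for each condition). The grey bars hold the middle 95% of 1000 probe sets nearest in mean signal, dark ticks are their medians and dashed lines mark 1.5-fold. Among the filled points only NRIP1 202599_s_at (-0.79) lies outside its bar, and RARB 205080_at (0.80) lies inside.

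RXRA, the retinoid X receptor alpha and obligate partner of RAR, also differed between its probe sets. The probe set 202449_s_at read 459 in the PRAME knock-down cells and 632 in the control cells (log2 ratio -0.51), and 9.7% of the probe sets of like signal had a lower ratio. The probe set 202426_s_at read 161 in the PRAME knock-down cells and 119.9 in the control cells (0.38), and 69.6% had a lower ratio. The first was lower and the second higher in the PRAME knock-down cells. Their distance of 0.89 was wider than in 92.9% of the 3104 other genes with 2 probe sets above the filter. The median of both was -0.063, so no direction can be given for RXRA as a gene.

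RXRB, the retinoid X receptor beta, had log2 ratios below 0 in all 3 probe sets. The probe set 209148_at read 1290 in the PRAME knock-down cells and 1336 in the control cells (-0.096), close to the median of -0.073 at like signal. The probe set 215099_s_at read 346 in the PRAME knock-down cells and 423 in the control cells (-0.33). Neither passed 1.5-fold. The probe set 215098_at was below the filter, with 12.7 in the PRAME knock-down cells and 45.2 in the control cells.

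NRIP1, also known as RIP140, is a corepressor that binds nuclear receptors in the presence of ligand. Retinoic acid induces its gene in several cell types. Both probe sets had high signals and differed from each other. The probe set 202599_s_at read 1833 in the PRAME knock-down cells and 3073 in the control cells, 1.73-fold lower after centering (log2 ratio -0.79). Only 1.7% of the probe sets of like signal had a lower ratio, and 5.7% were at least 1.5-fold lower. The probe set 202600_s_at read 2442 in the PRAME knock-down cells and 2413 in the control cells (-0.028), and 59.7% had a lower ratio. The distance of 0.76 between both was wider than in 89.1% of the 3104 other genes. The lower ratio of NRIP1 thus rests on 1 of 2 probe sets, and the sign of the other one changed to above 0 without centering (0.017), after quantile normalization (0.054), after subtraction of the trend (0.059) and with the filter at the 75th percentile (0.030).

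NCOA1, also known as SRC-1, is a coactivator of the p160 family that brings histone acetyltransferases to liganded receptors. It was the only one of the 7 genes with 3 or more probe sets above the filter. All 4 probe sets were above the filter and had lower signals in the PRAME knock-down cells. The probe set 209106_at read 1772 in the PRAME knock-down cells and 2068 in the control cells (log2 ratio -0.27). The probe set 209107_x_at read 1316 in the PRAME knock-down cells and 1851 in the control cells (-0.54). The probe set 210249_s_at read 1071 in the PRAME knock-down cells and 1345 in the control cells (-0.37), and 209105_at read 839.98 in the PRAME knock-down cells and 947 in the control cells (-0.22). None of these passed 1.5-fold. Of the probe sets of like signal, between 7.7% and 29.9% had lower ratios, and their medians lay between -0.103 and -0.045. The range of 0.32 was small, since 16.4% of the 681 other genes with 4 probe sets above the filter had a smaller one. All 4 stayed below 0 under every alternative way of processing, with values between -0.63 and -0.149.

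**Figure D3:**
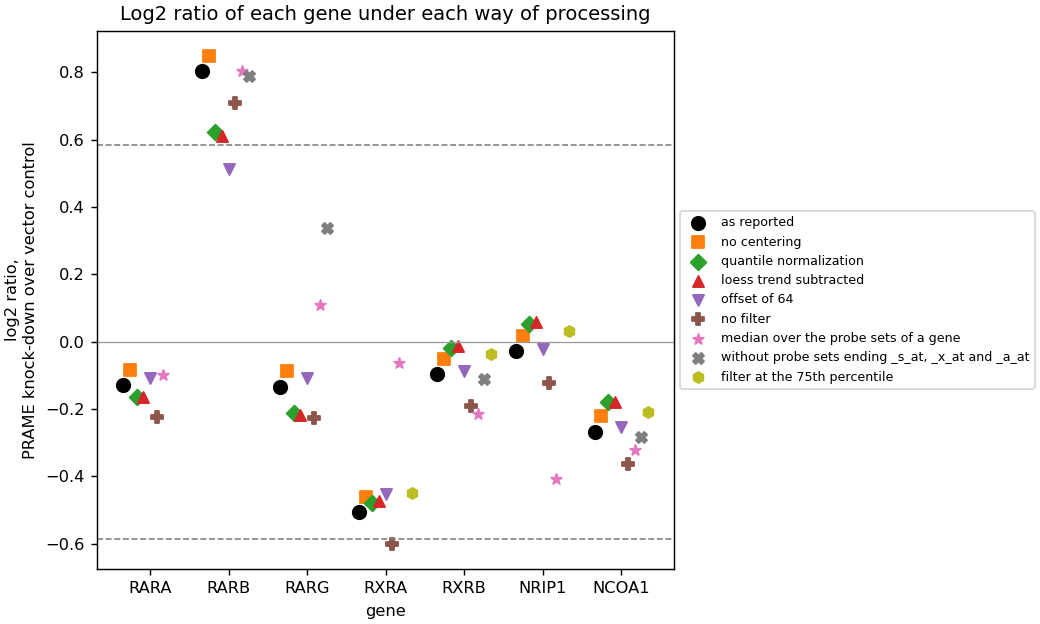
Log2 ratio of PRAME knock-down over control cells for each gene at its brightest probe set (black circles) and under 8 alternatives (other symbols), with dashed lines at 1.5-fold. RARB is above 0 in all 8 values drawn, between 0.51 and 0.85, and NCOA1 below 0 in all 9, whereas the points of RARG and NRIP1 lie on both sides of 0.

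Further genes of the pathway were taken from 6 lists with 75 genes. Of these, 64 had a probe set assigned to them as its only symbol, and 47 were above the filter. At the brightest probe set of each gene, 5 genes were at least 1.5-fold higher and 3 at least 1.5-fold lower. Of all 11794 genes above the filter, 7.54% were higher and 5.42% lower by as much. The median log2 ratio was -0.054 over the 47 genes and -0.0069 over all genes.

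The partners of the corepressors were mostly close to 0. Of 15 listed genes 14 were measured, with a median of -0.045, which was slightly above 0 after quantile normalization (0.023), without the trend (0.0034) and when each gene was given the median of its probe sets (0.0053). The deacetylases HDAC1, HDAC2 and HDAC3 had log2 ratios of 0.0046, -0.16 and -0.21. CTBP2, a corepressor that binds NRIP1, had a signal of 1656 in the PRAME knock-down cells and 2743 in the control cells (log2 ratio -0.77). All 5 CTBP2 probe sets above the filter were below 0, between -0.77 and -0.25. The demethylase gene KDM1A had a signal of 718 in the PRAME knock-down cells and 434 in the control cells (0.68). SIN3B, a scaffold for deacetylases, had 624 in the PRAME knock-down cells and 338 in the control cells (0.84), but its probe sets ranged from -0.046 to 0.84 and their median, 0.032, was close to 0.

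The coactivators other than NCOA1 and NCOA3 showed no gene past 1.5-fold. Of 12 listed genes 11 were above the filter, 8 of them with log2 ratios below 0, and the median was -0.118. NCOA2, the second member of the p160 family, had a signal of 4471 in the PRAME knock-down cells and 4119 in the control cells (0.073), with a range from -0.13 to 0.25 over 4 probe sets. The histone acetyltransferase EP300 had 1921 in the PRAME knock-down cells and 2273 in the control cells (-0.29). Its relative CREBBP had 2784 in the PRAME knock-down cells and 2930 in the control cells (-0.118), and its other probe set above the filter had a log2 ratio of 0.154. The ratios of the coactivators lay between -0.35 and 0.19.

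Genes for synthesis and binding of retinoic acid had a median of 0.21 over 7 genes above the filter, and of -0.075 when probe sets with the endings _s_at, _x_at and _a_at were left out. DHRS9, a dehydrogenase that oxidizes retinol, had a signal of 187 in the PRAME knock-down cells and 74.5 in the control cells (log2 ratio 1.28). CRABP2, which carries retinoic acid to RAR in the nucleus, had 166 in the PRAME knock-down cells and 93.7 in the control cells (0.78). The control signals of both genes were below the filter. For CRABP2, 21.5% of the probe sets of like signal were at least 1.5-fold higher as well. FABP5, which can carry retinoic acid to another receptor, had 9483 in the PRAME knock-down cells and 6815 in the control cells (0.43). At this high signal 97.2% of the probe sets of like signal had a lower ratio. The retinal dehydrogenases ALDH1A1, ALDH1A2 and ALDH1A3, which make retinoic acid, were below the filter.

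The targets of retinoic acid did not share a direction. CYP26A1, which carries the DR5 repeat printed above, had a signal of 85.4 in the PRAME knock-down cells and 125 in the control cells (log2 ratio -0.60). Its knock-down signal lies below 97.7, so CYP26A1 passed the filter through the control array. Of the probe sets of like signal, 8% were at least 1.5-fold lower as well. Both CYP26B1 probe sets were below the filter, and the brighter one had 11.0 in the PRAME knock-down cells and 12.2 in the control cells. Of 19 further genes known to be induced by retinoic acid, 9 were above the filter, 6 of them with log2 ratios below 0, and the median was -0.16. This median was -0.039 after quantile normalization and -0.091 without the trend with signal. ASB2, a ubiquitin ligase subunit, was higher in both probe sets (1.03 and 1.71). CDKN1A, the cell cycle inhibitor p21, had 205 in the PRAME knock-down cells and 333 in the control cells (-0.74). RARB and CYP26A1, the classical targets with a DR5 repeat in a promoter window, had ratios of opposite sign, both from signals at the lower end. Each passed the filter only through the array where it was higher, so no conclusion is drawn from these signs.

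Among the other partners of RXR, 5 of 12 listed receptors were above the filter and none passed 1.5-fold. Their median was -0.048, and it was above 0 in 5 of 8 alternatives: quantile normalization, no trend and the median probe set value of each gene (0.039 each), the filter at the 75th percentile (0.0103) and leaving out the endings _s_at, _x_at and _a_at (0.096). RXRG, the third RXR gene, was below the filter, with 15.4 in the PRAME knock-down cells and 25.8 in the control cells.

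**Figure D4:**
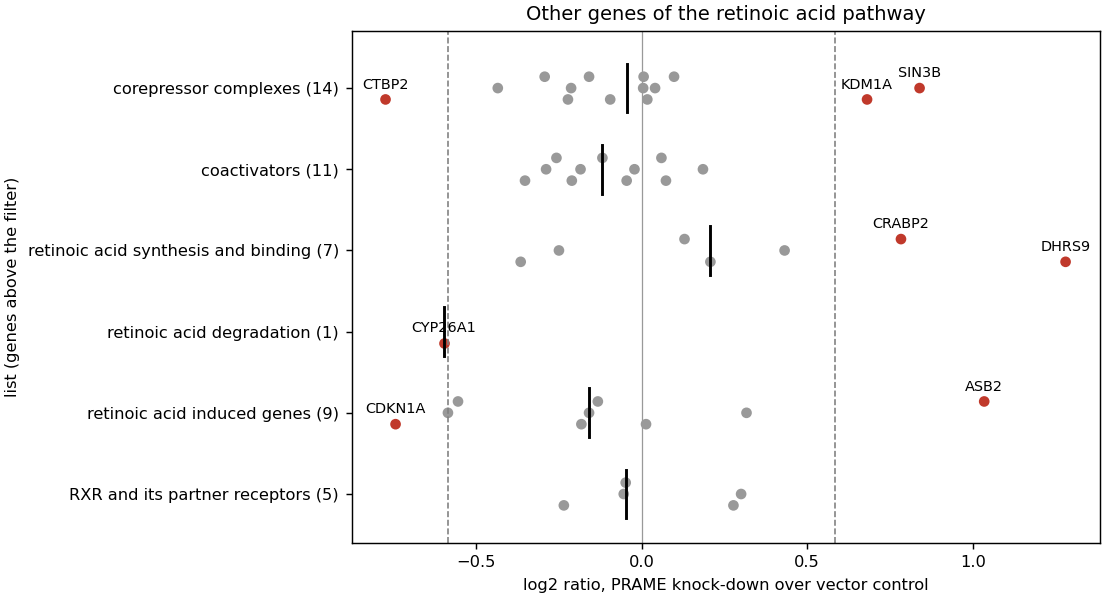
Log2 ratio of PRAME knock-down over control cells for 47 further genes of the pathway above the filter, by list (1 point per gene at its brightest probe set, number of genes in brackets, black bars are medians, dashed lines at 1.5-fold). In red are the 5 genes at least 1.5-fold higher and the 3 genes at least 1.5-fold lower, from -0.77 for CTBP2 to 1.28 for DHRS9.

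Ratios of neighbouring genes can move together in separately selected cultures, so the 25 measured genes on either side of each gene were taken as a comparison (31 genes in all for NRIP1, which lies near the first measured genes of chromosome 21). These neighbours were not matched on signal. The 50 neighbours of RARB on chromosome 3 had a median log2 ratio of -0.066, and 49 of them were below the value of RARB. At the low signal of the RARB probe set the median ratio was 0.21, and 87.8% of the probe sets of like signal had a lower ratio. For RXRA on chromosome 9 the neighbours had a median of -0.0086, and 4 of 50 were below its value of -0.51 at the brightest probe set. The other RXRA probe set had a log2 ratio of 0.38, so no direction against the neighbours can be given for RXRA. The neighbours of NCOA1 on chromosome 2 had a median of 0.123, and 6 of 50 were below -0.27. NRIP1 was surrounded by genes with a median of -0.195, and 19 of 31 were below its value of -0.028 at the brightest probe set. The 124 other genes of chromosome 21 had a median of -0.18. The brightest probe set of NRIP1 thus lay 0.167 above the median of its neighbours. Whether the low median around NRIP1 bears on the ratio of -0.79 at its other probe set, 202599_s_at, was not tested. The neighbours of RARA, RARG and RXRB had medians of -0.0011, 0.092 and 0.017.

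**Figure D5:**
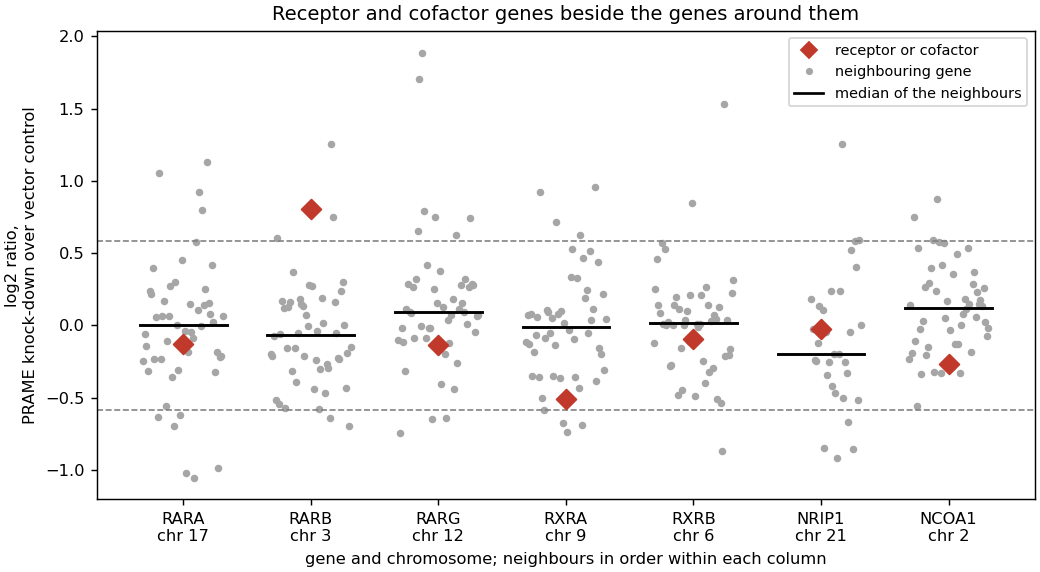
Log2 ratio of PRAME knock-down over control cells for the 7 genes at their brightest probe set (red diamonds) and for the measured genes around them (grey points in chromosomal order, up to 25 on either side, black bars are their medians). RARB (0.80) lies above 49 of its 50 neighbours, which were not matched on signal, and the neighbours of NRIP1 have the lowest median (-0.195).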

How the data were processed

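Total RNA from PRAME knock-down and from control L-428 cells was hybridized to 1 array each. The values the authors deposited are linear MAS5 signal intensities, made with Affymetrix Expression Console 1.1. MAS5 subtracts a background and combines the probes of a probe set. Trimmed means of both arrays were equal (500.1). Cell line and array type are those of the sample labels and the number of probe sets. The series' design text names others.
The 62 control probe sets were left out. Without adding an offset, signals were log2 transformed. The filter kept 27307 probe sets whose mean log2 signal reached the median, and 0.045 was subtracted from the ratios for centering. Gene names came from the platform annotation (1 symbol for 41097 probe sets, several for 1801, none for 11777) and were updated through RefSeq gene numbers (41043 found). For each gene, the brightest probe set above the filter was used. Without replicates, thresholds of 1.5-fold and 2-fold replaced tests. Named are all member genes, PRAME, up to 4 genes past 1.5-fold of each list and 7 fixed genes, of which 1 is not reported here. FABP5, HDAC1 to HDAC3, ALDH1A1 to ALDH1A3, TNFRSF8, CD79A, DCN, COL1A1, RARRES1 and the DR5 genes in the last section were added after their values were seen. Members and lists were chosen with earlier results of these data known. Scripts were tested on simulated data. Protein sequences were not used here. Software was matplotlib 3.10.9, numpy 2.4.6, pandas 2.3.3, Python 3.11.15 and statsmodels 0.14.6.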

Additional observations from a re-analysis of the deposited data

How the results depend on the processing

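The alternatives were no centering, quantile normalization, subtraction of a loess trend (span 0.4), an offset of 64, a filter at the 75th percentile or none, leaving out probe sets that end in _s_at, _x_at or _a_at, and taking each gene's median probe set value. The count of receptor and cofactor probe sets at least 1.5-fold lower was 6 without a filter and 0 without these endings, where both NRIP1 probe sets are left out. The count at least 1.5-fold higher was 4 without a filter, 0 with the offset, where RARB had a log2 ratio of 0.51, and 0 with the filter at the 75th percentile, which leaves RARB out. Over all probe sets, 1092 were lower and 1096 higher with the offset, 8054 and 10839 without a filter, 556 and 512 with the filter at the 75th percentile, and 1070 were lower without these endings. The median of the receptor and cofactor probe sets stayed below 0 in all 7 alternatives run on it, between -0.262 and -0.088. Single genes moved by more than the SD of 0.33 between probe sets of one gene for RARG (0.34 without the endings), RXRA (-0.063 as the median) and NRIP1 (-0.41 as the median). RXRA passed 1.5-fold without a filter (-0.60), and CYP26A1 did not without centering (-0.55) and with the offset (-0.38). CRABP2 did not with the offset (0.51), and SIN3B did not without the endings (-0.061) and as the median (0.032). No paired analysis was possible because each condition has 1 array, and no replicate could be left out. Signals near the filter limit the ratios of RARB, RARG, CRABP2, DHRS9 and CYP26A1.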

Other observations

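The DR5 repeat was also looked up in all other genes with a promoter window, after the values of RARB and CYP26A1 were seen. Of 29 genes with a repeat in a window, 8 were above the filter. Their log2 ratios of PRAME knock-down over control cells ranged from -0.60 for CYP26A1 to 0.80 for RARB, 5 of 8 were above 0, and the median was 0.149. The other 6 were PHF8 (0.36), ATXN1L (0.18), PANK2 (0.18), CYB5R2 (0.118), CFLAR (-0.076) and HROB (-0.23), all within 1.5-fold. Over all 11794 genes above the filter the median was -0.0069, and 13653 of all 27307 probe sets above it had log2 ratios below 0. The 8 genes include RARB and CYP26A1, which each passed the filter only through the array where the signal was higher. With so few genes, no direction is read from the count of 5 of 8 or from its median.
RARRES1, a gene named for its response to retinoic acid receptors, had a signal of 39.8 in the PRAME knock-down cells and 12.5 in the control cells, both below the filter. It is 1 of 6 genes in the list of induced genes below the filter, picked after its value was seen. Of all probe sets below the filter, 37.8% were at least 1.5-fold higher and 18.1% at least 1.5-fold lower. No result is read from RARRES1.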
